A study of Homo sapiens with 12 samples.

Results

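The 10 receptor tyrosine kinases examined here, EGFR, ERBB2, ERBB3, PDGFRA, PDGFRB, IGF1R, MET, AXL, KIT and FGFR1, are receptors often discussed when melanoma cells adapt to inhibition of the MAPK pathway. They were taken by gene symbol and make up 10 of the 44659 genes in the count table and 10 of the 58 human receptor tyrosine kinases listed. The cells were A375, an established human skin melanoma line with mutated BRAF, grown in DMEM with 10% serum and 2 mM glutamine. In the first experiment, cells received fresh medium with vemurafenib, a BRAF inhibitor, and cobimetinib, a MEK inhibitor (500 nM each, termed MAPKi), or with DMSO, the solvent control. In the second, without inhibitors, cells were placed in medium free of glutamine (Gln-depleted) or in CTRL medium. Every group was harvested after 24 h and had 3 libraries, 12 libraries in all, from a single cell line, so that each response describes A375 cells only.

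A receptor tyrosine kinase binds a growth factor outside the cell, pairs with another receptor, and phosphorylates tyrosines on its own tail to which adaptor proteins dock. Through these adaptors it feeds the RAS and MAPK cascade and the PI3K and AKT cascade. When the MAPK cascade is blocked, negative feedback on the receptors is relieved, and higher receptor levels are known in melanoma as a route by which cells withstand the inhibitors. The question addressed here is which of these receptor mRNAs differed after 24 h of MAPKi, and which after the withdrawal of glutamine, a nutrient that melanoma cells consume in large amounts.

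Total counts ran from 31056296 to 40071368 reads per library (median 35748567). The 3 libraries of a group are described as repeats of the experiment, and p-values measure the spread between them. Both glutamine groups were sequenced in one batch and both MAPKi groups in another, and replicate 1 of each glutamine group came from a different experimental batch than replicates 2 and 3. Same-numbered libraries of the glutamine experiment deviated from their group means together (r = 0.50, 0.36 and 0.39 across genes), whereas those of the MAPKi experiment did not (r = 0.01 to 0.05). All 12 ERK pathway targets listed, which report on the drug, were downregulated with MAPKi, with a median log2 fold change of -3.86.

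All 8 melanocyte lineage markers had reads in every group, and DCT, a pigment enzyme, made up most of their sum with MAPKi. Their summed level was 1308 to 1401 CPM, that is reads scaled to a common library size, with DMSO and 8686 to 11000 CPM with MAPKi, and it was 1022 to 1238 CPM in CTRL medium and 649 to 739 CPM without glutamine. Of the 8, 6 were upregulated and 1 downregulated with MAPKi. S100B went down, with 5447, 6138 and 6535 reads with DMSO and 1323, 1224 and 1665 with MAPKi. The summed level of 5 fibroblast markers was 17.0 to 22.7 CPM with DMSO and 12.4 to 14.7 CPM with MAPKi, 12.5 to 21.0 CPM in CTRL medium and 2.78 to 4.17 CPM without glutamine. COL3A1, a collagen among these markers, had no read in any library, and LUM made up most of that sum. The part that these shifts play in the receptor values was not tested. Among keratinocyte markers KRT5 and KRT1, and among immune markers CD3E and MS4A1, had no read in any group. The summed keratinocyte level, carried by KRT10, was 36.9 to 38.6 CPM with DMSO, 56.5 to 57.3 CPM with MAPKi, 36.0 to 48.8 CPM in CTRL medium and 51.1 to 104.8 CPM without glutamine. Endothelial markers summed to between 4.39 and 10.3 CPM over all groups, but 2 of them moved in opposite directions with MAPKi. VWF had 150, 178 and 158 reads with DMSO and 317, 266 and 319 with MAPKi, and was upregulated. KDR had 124, 160 and 120 reads with DMSO and 5, 9 and 3 with MAPKi, and was downregulated. The immune sum, carried by CD68, was 54.5 to 64.3 CPM with DMSO and 392 to 404 CPM with MAPKi, 37.8 to 59.0 CPM in CTRL medium and 25.7 to 38.1 CPM without glutamine. PTPRC, another immune marker, had 17, 15 and 14 reads with DMSO and fewer, 4, 6 and 3, with MAPKi.

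Levels between receptors were compared as FPKM, the same scale divided by gene length, which here is the length of the main annotated transcript, with all 12 libraries on one scale. In DMSO cells ERBB3, a heregulin receptor with little kinase activity of its own, had the highest level (88.7 FPKM ± 6.01, SD, n = 3). IGF1R, the receptor for insulin-like growth factors, followed with 40.7 FPKM ± 2.27. MET, the hepatocyte growth factor receptor, and ERBB2, the shared partner of the ERBB family, had the same level within their spread by this length (21.4 FPKM ± 1.06 and 21.4 FPKM ± 1.65).

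Below these stood FGFR1, a fibroblast growth factor receptor, with 10.3 FPKM ± 0.877, and AXL, the receptor for GAS6, with 2.82 FPKM ± 0.146. PDGFRA, EGFR and PDGFRB lay under 1 FPKM, at 0.852 ± 0.0959, 0.702 ± 0.0378 and 0.550 ± 0.0873. KIT, the stem cell factor receptor that normal melanocytes depend on, had 2 reads in the 3 DMSO libraries together.

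With MAPKi the order changed at several places. ERBB3 stayed first (192 FPKM ± 23.9), MET moved above IGF1R (41.6 FPKM ± 3.20 against 32.8 FPKM ± 2.11), and PDGFRB (2.02 FPKM ± 0.0566) moved above PDGFRA (0.781 FPKM ± 0.206) and EGFR (0.258 FPKM ± 0.0382). IGF1R and ERBB2 (31.0 FPKM ± 3.39) overlapped. Without glutamine, AXL reached 19.2 FPKM ± 10.5 and its libraries overlapped those of MET (27.8 FPKM ± 4.13) on one side and ERBB2 (18.1 FPKM ± 4.75) on the other, whereas in CTRL medium AXL (5.67 FPKM ± 0.448) lay below both.

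In CTRL medium IGF1R, ERBB2, MET and FGFR1 each overlapped the next in the order (40.2, 23.0, 18.5 and 12.8 FPKM), as did PDGFRB, PDGFRA and EGFR (0.781, 0.731 and 0.673 FPKM). With length counted over all annotated exons, EGFR and PDGFRB exchanged places in DMSO cells, as did FGFR1 and AXL in MAPKi and CTRL medium cells and ERBB2 and MET in CTRL medium cells. By that length ERBB2 also lay further below its neighbours. It had 9.44 FPKM against 20.2 FPKM for MET with DMSO, and 13.7 against 28.8 FPKM for IGF1R with MAPKi. Without glutamine ERBB2 had 8.01 FPKM against 17.6 FPKM for AXL.

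**Figure D1:**
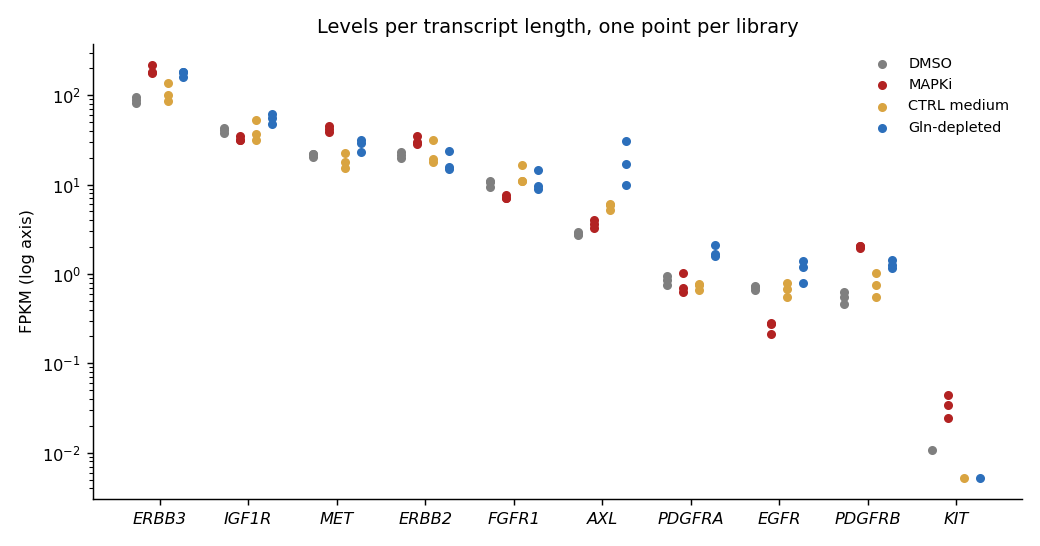
Level of each receptor in FPKM (log axis) in the 12 libraries, coloured by group; each point is 1 library, and libraries of KIT without a read are not drawn. ERBB3 is the highest in every group and KIT the lowest.

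In the comparisons, a gene was called upregulated or downregulated when its change was shown by the test to exceed 1.5-fold (log2 of 0.585, adjusted p at most 0.05), and it was said to rise or fall when it passed the test against no change. Of the 9 receptors with enough reads for the test, MAPKi upregulated PDGFRB, ERBB3 and MET and downregulated EGFR. These 4 compare with 33.7% of all 15975 genes tested past the same limit, 16.1% upward and 17.6% downward. Against no change, 5 receptors rose and 3 fell, where 71.8% of all genes passed, 35.8% upward and 35.9% downward. With all 12 libraries in the fit, 4 of these 8 no longer passed against no change (adjusted p = 0.0695 for ERBB2, 0.172 for IGF1R, 0.350 for AXL and 0.0611 for FGFR1). That fit takes its spread from both experiments, and replicates differed more in the glutamine experiment. The groups did not overlap for 8 of the 9, nor for 75.9% of all genes. The median log2 fold change was 0.35 for the receptors and -0.001 for all genes. In bulk RNA, a change in the number of cells of a type and a change in RNA per cell cannot be told apart.

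**Figure D2:**
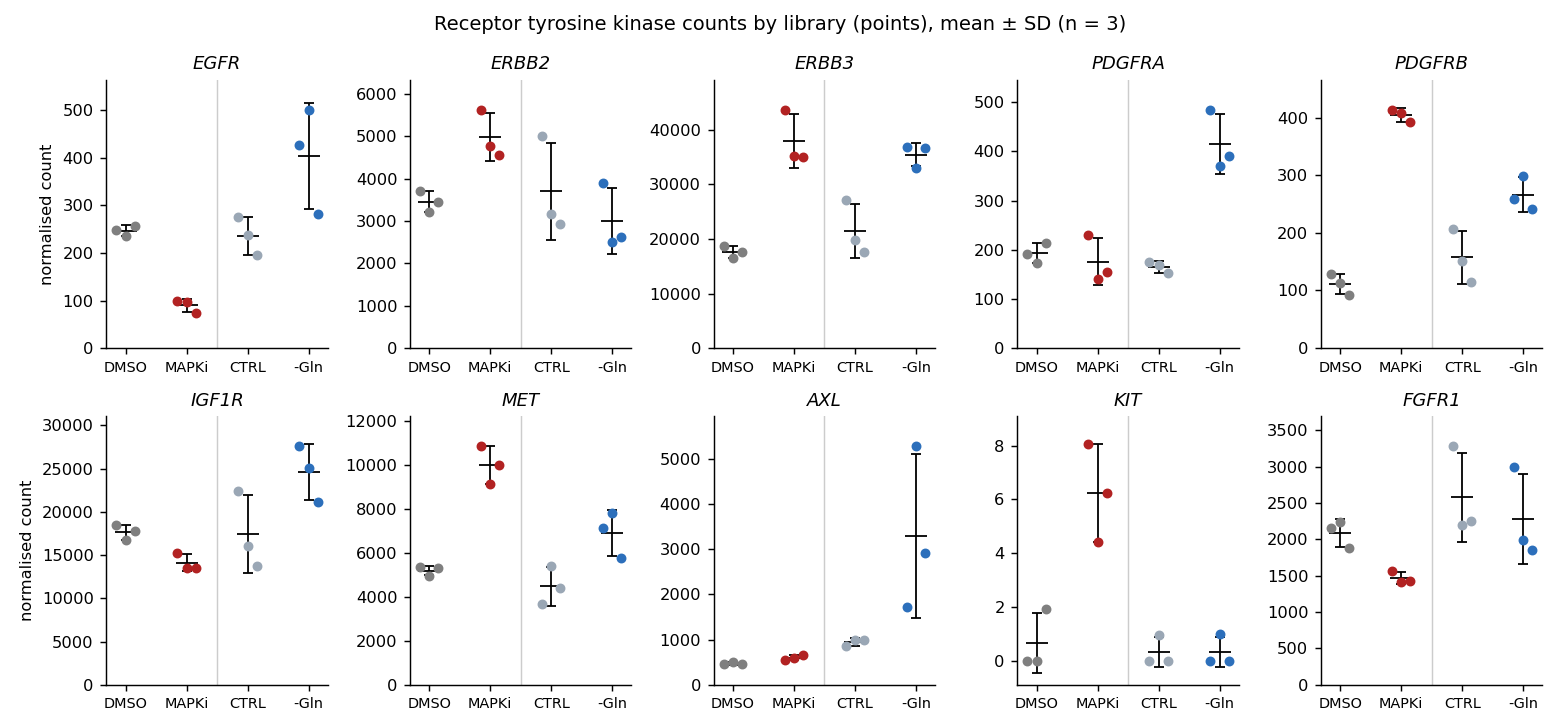
Normalised count of each of the 10 receptors in each library (points), with the group mean and SD (n = 3), in DMSO, MAPKi, CTRL and Gln-depleted (-Gln) cells; the vertical axes differ and the experiments were normalised separately. EGFR is lower and PDGFRB higher in all 3 MAPKi libraries than in any DMSO library, and AXL spreads widely without glutamine.

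The ERBB family split. EGFR (chromosome 7, 55019017 to 55211628, plus strand, GRCh38), the receptor for EGF and TGFA, had normalised counts of 249, 235 and 257 with DMSO and of 98.9, 96.1 and 74.6 with MAPKi. All MAPKi libraries lay well below all DMSO libraries. Its log2 fold change was -1.46 (SE 0.13; adjusted p against the limit 0.000172), a level 2.74-fold lower. EGFR-AS1, an antisense gene sharing 186 exon bases with it, had at most 4 reads in a library.

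ERBB3 (chromosome 12, 56076799 to 56103505, plus strand) counted 18769, 16603 and 17645 with DMSO and 43718, 35152 and 34981 with MAPKi. Each MAPKi library exceeded every DMSO library, and the mean was 2.15-fold higher (log2 fold change 1.10, SE 0.092, adjusted p = 0.000259). ERBB2 (chromosome 17, 39687914 to 39730426, plus strand) counted 3710, 3221 and 3446 with DMSO and 5630, 4766 and 4546 with MAPKi. It rose without overlap, but its log2 fold change of 0.53 (SE 0.086; adjusted p against no change 0.0006) did not exceed the limit (adjusted p = 0.891). MIEN1, an antisense neighbour that shares 571 exon bases (5.53%) with ERBB2, had 1125 to 1276 reads with DMSO and 1693 to 2127 with MAPKi, and reads in the shared stretch can be told apart only where strand was used, which is not given in the sources used here.

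The platelet-derived growth factor receptors went separate ways. PDGFRB (chromosome 5, 150113839 to 150155872, minus strand), which binds PDGFB and PDGFD, had the largest rise of the 9 receptors. It counted 128, 113 and 92.6 with DMSO and 414, 408 and 392 with MAPKi. The MAPKi libraries lay close together and more than 3 times above the highest DMSO library, and the log2 fold change was 1.86 (SE 0.13; adjusted p against the limit 1.38e-05). Beside it, of the other fibroblast markers tested, COL1A1 rose (log2 fold change 0.83, adjusted p against no change 0.00433; 27, 33 and 41 reads with DMSO and 55, 57 and 70 with MAPKi) and LUM fell (-0.69, adjusted p = 0.00123), and their part in the rise of PDGFRB was not tested.

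PDGFRA (chromosome 4, 54229280 to 54298245, plus strand), which binds PDGFA and PDGFC, counted 192, 173 and 213 with DMSO and 230, 141 and 156 with MAPKi. The groups overlapped, since MAPKi replicate 1 exceeded all DMSO libraries and the other MAPKi libraries lay below them. The log2 fold change was -0.13 (95% confidence interval -0.57 to 0.30; adjusted p = 0.544 against no change), and without MAPKi replicate 1 it was -0.38 (adjusted p = 0.0387). A gene on the same strand, ENSG00000282278, shares 1533 of the exon bases (16.1%), and its reads cannot be told apart there.

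KIT (chromosome 4, 54657267 to 54740783, plus strand) did not pass the minimum of 10 mean normalised counts. It had 0, 0 and 2 reads with DMSO and 8, 4 and 7 with MAPKi. This ratio of 9.44 has a 95% interval of 2.28 to 83.6 that covers counting error only, and at these reads the level of KIT remained the lowest of the 10 with MAPKi.

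MET (chromosome 7, 116672196 to 116798377, plus strand) counted 5336, 4945 and 5286 with DMSO and 10840, 9137 and 10001 with MAPKi. Every MAPKi library was higher, with a log2 fold change of 0.95 (SE 0.067; adjusted p against the limit 0.000289). AXL (chromosome 19, 41219223 to 41261766, plus strand) counted 452, 505 and 461 with DMSO and 546, 599 and 661 with MAPKi. It rose by a smaller step that did not exceed the limit (log2 fold change 0.35, SE 0.088, adjusted p against no change 0.00663).

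IGF1R and FGFR1 moved down. IGF1R (chromosome 15, 98648539 to 98964530, plus strand) counted 18456, 16754 and 17784 with DMSO and 15289, 13530 and 13569 with MAPKi. It fell in all 3 libraries by a small step (log2 fold change -0.32, SE 0.062, adjusted p against no change 0.00156). FGFR1 counted 2159, 2244 and 1877 with DMSO and 1559, 1412 and 1422 with MAPKi. It fell without overlap, short of the limit (log2 fold change -0.52, SE 0.073, adjusted p against no change 0.000245).

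The starts of the receptor genes that passed the limit in either experiment are printed, except that of ERBB3, for which no window was found. That of AXL is added for its large fold change without glutamine. Each run is the RefSeq window of GRCh38.p14 from 250 bases before to 50 bases after a start. The start used is the first one listed in the direction of transcription, and any other starts were not searched. Runs read 5′ to 3′ on the strand of the gene, with capitals where a searched motif matched on either strand. The windows are chr7:55018767-55019066 (plus) for EGFR, chr5:150155796-150156095 (minus) for PDGFRB, chr7:116671946-116672245 (plus) for MET, chr4:54229043-54229342 (plus) for PDGFRA and chr19:41218973-41219272 (plus) for AXL.
EGFR: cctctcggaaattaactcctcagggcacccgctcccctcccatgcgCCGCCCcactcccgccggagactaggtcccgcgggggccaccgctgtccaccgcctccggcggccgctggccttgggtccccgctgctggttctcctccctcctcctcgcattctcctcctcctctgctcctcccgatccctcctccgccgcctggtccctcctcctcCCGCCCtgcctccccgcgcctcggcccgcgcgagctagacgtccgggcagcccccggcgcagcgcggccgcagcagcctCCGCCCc
PDGFRB: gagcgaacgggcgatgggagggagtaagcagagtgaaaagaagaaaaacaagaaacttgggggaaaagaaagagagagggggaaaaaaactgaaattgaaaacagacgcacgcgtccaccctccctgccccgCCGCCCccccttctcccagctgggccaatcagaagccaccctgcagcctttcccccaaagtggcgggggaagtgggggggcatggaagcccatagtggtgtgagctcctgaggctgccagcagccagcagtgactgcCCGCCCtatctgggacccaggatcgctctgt
MET: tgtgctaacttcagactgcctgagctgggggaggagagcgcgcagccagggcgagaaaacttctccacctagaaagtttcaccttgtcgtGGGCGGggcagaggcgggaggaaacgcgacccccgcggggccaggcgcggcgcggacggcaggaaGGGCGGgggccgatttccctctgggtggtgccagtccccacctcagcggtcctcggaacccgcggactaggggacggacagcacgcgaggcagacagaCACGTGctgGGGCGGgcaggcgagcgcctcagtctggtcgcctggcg
PDGFRA: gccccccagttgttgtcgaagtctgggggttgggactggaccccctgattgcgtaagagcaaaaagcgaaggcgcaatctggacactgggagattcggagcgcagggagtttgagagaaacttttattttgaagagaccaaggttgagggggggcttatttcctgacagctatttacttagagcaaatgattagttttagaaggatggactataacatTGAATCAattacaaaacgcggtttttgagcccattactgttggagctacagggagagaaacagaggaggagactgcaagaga
AXL: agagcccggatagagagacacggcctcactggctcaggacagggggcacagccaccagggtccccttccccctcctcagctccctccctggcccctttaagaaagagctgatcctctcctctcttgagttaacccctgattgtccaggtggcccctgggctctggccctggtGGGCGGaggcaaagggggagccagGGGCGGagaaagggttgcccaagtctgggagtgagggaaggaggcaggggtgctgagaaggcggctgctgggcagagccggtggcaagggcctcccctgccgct

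A window was found for 8 of the 10 receptors, was absent for ERBB3 and was left out for FGFR1. The motifs searched on both strands were AP-1 (TGANTCA), GC box (GGGCGG), E-box (CACGTG), ETS (CCGGAAGT), forkhead (TGTTTAC), TEAD (GGAATG) and SOX (ACAAAG), and the GC box, E-box and other matches printed do not overlap. The GC box occurs in the windows of EGFR (3 matches), MET (3), PDGFRB (2), AXL (2), IGF1R (2) and KIT (1), and in 45% of all 35116 windows. PDGFRA, whose window is 47.0% G or C against a median of 58.7%, has no GC box and 1 match to TGANTCA. The matched stretch is TGAATCA, with A at N, where the search took any base, so this match alone does not show an AP-1 site. TGANTCA occurs in 7.71% of windows, and binding of AP-1 was not tested. ERBB2 also has 1 TGANTCA match, with 2 ETS matches (4.14% of windows), and MET has 1 E-box (7.26%). The forkhead, TEAD and SOX letters (3.42%, 14% and 16.1% of windows) occur in none of the 8. EGFR, downregulated with MAPKi, and MET, upregulated, thus share a GC-rich window (75.3% and 69.3%) with 3 GC boxes each.

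Of the other 48 human receptor tyrosine kinases, 29 were tested with MAPKi, and 5 were upregulated and 8 downregulated, with a median log2 fold change of -0.10. Past the limit were 44.8% of these 29, much like the 44.4% of the 9 receptors tested, and 33.7% of all genes. RET, the receptor of the GDNF family, had 1 read in the 3 DMSO libraries and 182 in the 3 MAPKi libraries. This is a ratio of 181 with a 95% counting interval of 32.1 to 7185, and the median of the list was the same (-0.10) with RET at the lower end of that interval. AATK, a kinase with a short extracellular part, rose from 203 ± 12.9 to 1933 ± 12.1 normalised counts (SD, n = 3; log2 fold change 3.25), and EPHB3, an ephrin receptor, from 226 ± 37.7 to 878 ± 71.3 (1.96). INSR, the insulin receptor, and LMTK3 were also upregulated (log2 fold changes 0.93 and 1.44) and were picked for naming from their values. Among those downregulated, KDR, a VEGF receptor, went from 136 ± 21.9 to 5.89 ± 3.71 (log2 fold change -4.54), ALK from 78.9 ± 16.2 to 15.7 ± 2.29 (-2.31) and FLT1, another VEGF receptor, from 432 ± 75.2 to 87.9 ± 24.7 (-2.30).

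**Figure D3:**
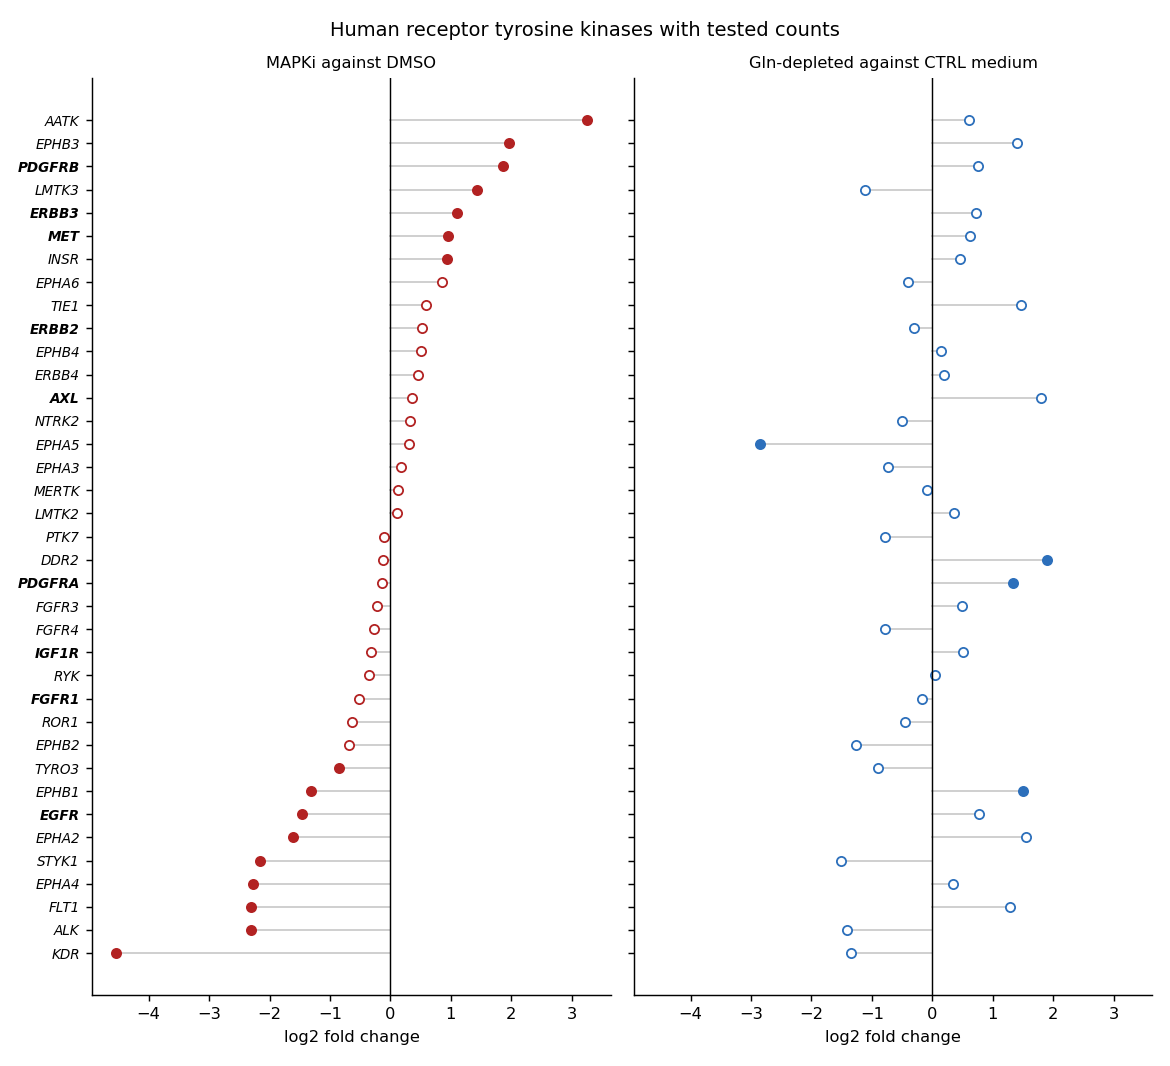
Log2 fold change of the tested human receptor tyrosine kinases with MAPKi (left) and without glutamine (right); the 9 tested receptors described here are in bold, filled points passed the 1.5-fold limit, and RET is left out for its single DMSO read. PDGFRB, ERBB3 and MET sit among the highest with MAPKi and EGFR among the lowest.

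Ligands of the receptors were tested next, 19 of 27 of them, and 7 were upregulated and 5 downregulated with MAPKi (63.2%, against 33.7% of all genes). Their median log2 fold change was -0.0002 and was the same with IGF1 at the lower end of its interval. TGFA, a ligand of EGFR, counted 5436, 6129 and 4918 with DMSO and 292, 366 and 311 with MAPKi, a log2 fold change of -4.09. TGFA thus fell together with its receptor. GAS6, the ligand of AXL, counted 18.2, 16.9 and 30.9 with DMSO and 337, 263 and 243 with MAPKi (3.66), and so rose by more than AXL did.

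IGF1, a ligand of IGF1R, had 6 reads in the DMSO libraries and 93 in the MAPKi libraries together, a ratio of 15.4 (95% counting interval 6.82 to 43.1). BTC, a ligand of EGFR and ERBB4, rose from 14.9 ± 2.93 to 78.1 ± 13.6 (log2 fold change 2.39). NRG1, the heregulin that binds ERBB3, fell from 48.3 ± 6.16 to 11.2 ± 2.12 (-2.10), while ERBB3 itself rose. FGF2, a ligand of FGFR1, fell from 683 ± 49.1 to 170 ± 5.25 (-2.01).

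**Figure D4:**
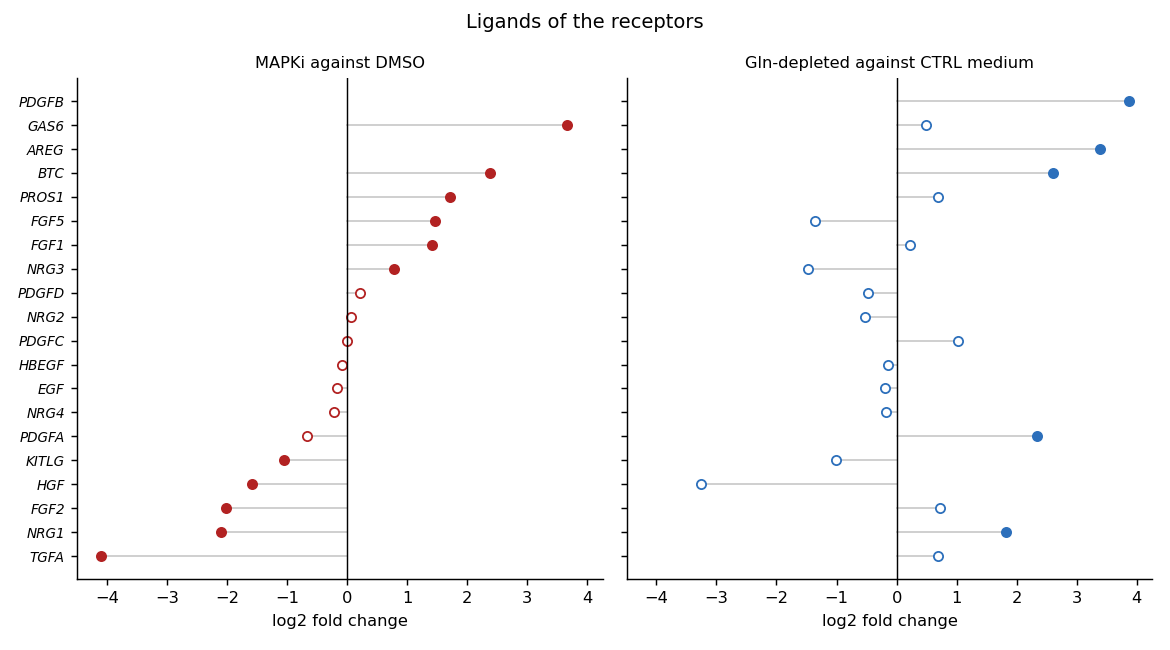
Log2 fold change of the tested ligands with MAPKi (left) and without glutamine (right); filled points passed the 1.5-fold limit, a missing point was not tested in that experiment, and IGF1 is left out because at most 3 reads were seen in a DMSO library. TGFA is the lowest with MAPKi, and PDGFB, AREG and BTC are the highest without glutamine.

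Downstream of the receptors, 19 of 20 adaptors and effectors were tested, with 4 upregulated and 3 downregulated with MAPKi (median log2 fold change -0.05). That is 36.8% past the limit, against 33.7% of all genes. PIK3R3, a regulatory subunit of PI3K, rose from 295 ± 37.0 to 1599 ± 149 normalised counts (log2 fold change 2.44). IRS2, the adaptor of the insulin and IGF1 receptors, and GAB1, an adaptor used by MET, were upregulated by 1.27 and 1.04, and so was SOS2, picked for naming from its value (1.03). GAB2 and GRB10, both adaptors, and PLCG1, a phospholipase, had log2 fold changes of -1.49, -1.09 and -0.98.

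None of 15 attenuators tested of 16, the proteins that dampen receptor signalling, was upregulated with MAPKi and 5 were downregulated (median -0.41). That is 33.3% past the limit, all of it downward, against 33.7% of all genes, 16.1% upward and 17.6% downward. The Sprouty genes led, 2 of which (SPRY2 and SPRY4) are also among the ERK pathway targets. SPRY4 went from 16702 ± 357 to 95.4 ± 13.1 normalised counts (log2 fold change -7.46), SPRY1 from 1245 ± 51.2 to 7.70 ± 2.01 (-7.33) and SPRY2 from 3770 ± 108 to 74.9 ± 3.47 (-5.65). SH2B3 and ERRFI1, an inhibitor of EGFR, were the others, picked for naming from their values (-2.65 and -1.15).

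Among 8 shedding proteins, TIMP2, an inhibitor of metalloproteases, was upregulated (log2 fold change 1.61), and TIMP3, an inhibitor of the sheddases, and ADAM12, a protease, were downregulated (-1.84 and -2.57), with a median of 0.02. Past the limit were 37.5% of these shedding proteins, against 33.7% of all genes. Of 12 transcription factors named in work on these receptors, 5 were upregulated and 3 downregulated (66.7%, median 0.43). FOXD3, reported to act on ERBB3, rose from 412 ± 9.11 to 1928 ± 126 (2.22), JUN had a log2 fold change of 2.06 and TFAP2A, a regulator of melanocyte genes, one of 1.80. MITF (0.78), the master factor of melanocytes, and FOXO3 (0.76) were also upregulated and were picked for naming from their values. SOX9, whose rise is linked to EGFR in melanoma, fell from 19661 ± 660 to 1907 ± 155 (-3.37), TFAP2C by 2.11 on the log2 scale and TEAD1 by 1.60.

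Without glutamine, in the main fit that left out the replicate pairing, PDGFRA was the sole receptor of the 9 tested past the limit. This compares with 4.86% of 15900 genes tested (3.21% upward and 1.65% downward). PDGFRA and AXL rose against no change and none fell (15.8% of all genes passed, 8.84% upward and 6.96% downward), and the groups did not overlap for 6 of the 9 receptors (38.4% of all genes), all higher without glutamine. The median log2 fold change of the receptors was 0.72, and that of all genes was 0.02. With the replicate number as a block, 7 of the 9 rose against no change and none fell. Under the block 42.5% of all 15900 genes passed that test, 3607 upward and 3154 downward. Of the receptors 2 passed the limit, PDGFRA and AXL, both upward, and 14.7% of all genes did, 1337 upward and 1006 downward. With library totals in place of the normalisation factors, the median of all genes was -0.16, and PDGFRA did not pass the limit.

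PDGFRA counted 175, 168 and 153 in CTRL medium and 485, 370 and 391 without glutamine. All libraries without glutamine were higher than all CTRL libraries, and the log2 fold change was 1.33 (SE 0.23; adjusted p against the limit 0.0464). The call was lost on leaving out any of the 6 libraries (log2 fold change 1.20 to 1.41, adjusted p 0.0718 to 0.152), with DESeq2 (adjusted p = 0.0606) and without a filter on low counts (0.101). It held with the replicate block (adjusted p = 0.0118). In experimental batch 2 the log2 fold change was 1.25 (adjusted p against the limit 0.0526), and the pair of libraries in batch 1 differed by 1.48, with no test. Against no change the adjusted p of PDGFRA was 0.0109. It no longer passed that test without CTRL medium replicate 2 (adjusted p = 0.0504) or CTRL medium replicate 3 (0.0514).

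AXL had the largest fold change of the 9 without glutamine, and also the widest spread. It counted 851, 1002 and 991 in CTRL medium and 1711, 5280 and 2910 without glutamine. The lowest library without glutamine was that of experimental batch 1, and all 3 exceeded every CTRL library. The log2 fold change was 1.80 (SE 0.38; adjusted p against no change 0.0200, against the limit 0.0581), and it was 1.65 with the replicate block (against the limit 0.0116). Without Gln-depleted replicate 1 it was 2.11 (against the limit 0.0128), and without Gln-depleted replicate 2 it was 1.29 (0.162). Against no change AXL no longer passed without CTRL medium replicate 2 (adjusted p = 0.0688), CTRL medium replicate 3 (0.0643) or Gln-depleted replicate 3 (0.0555). In batch 2 it was 2.04 (against the limit 0.0194), and the batch 1 pair differed by 1.01.

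A further 4 receptors were higher in every library without glutamine but passed neither test in the fit of this experiment without the block. With all 12 libraries in the fit they passed against no change (adjusted p = 0.0216 for EGFR, 0.00732 for ERBB3, 0.0116 for MET and 0.0219 for PDGFRB), though not against the limit. That fit takes its spread from both experiments, and replicates differed less in the MAPKi experiment. EGFR counted 275, 238 and 195 in CTRL medium and 426, 501 and 283 without glutamine (log2 fold change 0.77, SE 0.28, adjusted p against no change 0.0999; 0.0180 with the block). ERBB3 counted 27059, 19821 and 17523 in CTRL medium and 36790, 33013 and 36615 without glutamine (0.72, SE 0.21; 0.0504 and 0.00566 with the block). Without CTRL medium replicate 1, the highest of its group, ERBB3 passed against no change (0.93, adjusted p = 0.0216), as it did with protein-coding genes only (0.0466) and with genes of a mean count of at least 100 (0.0498).

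MET counted 3654, 5395 and 4380 in CTRL medium and 7138, 7801 and 5763 without glutamine (0.62, SE 0.22; 0.0863 and 0.0108 with the block). PDGFRB counted 206, 152 and 114 in CTRL medium and 258, 299 and 241 without glutamine (0.76, SE 0.29; 0.111 and 0.0285 with the block). In batch 2 alone the log2 fold changes of EGFR, ERBB3, MET and PDGFRB were 0.86, 0.90, 0.47 and 1.02 (adjusted p against no change 0.0957, 0.0104, 0.127 and 0.0372), and the batch 1 pairs differed by 0.63, 0.44, 0.97 and 0.33, higher without glutamine in each.

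The other receptors overlapped between the glutamine groups. IGF1R counted 22473, 16046 and 13729 in CTRL medium and 27595, 25066 and 21196 without glutamine (log2 fold change 0.50, SE 0.23; adjusted p against no change 0.168, and 0.0118 with the block). In both groups replicate 1, the library of batch 1, was the highest, and in batch 2 alone the log2 fold change was 0.64 (adjusted p against no change 0.0335). ERBB2 counted 5013, 3160 and 2927 in CTRL medium and 3896, 2507 and 2613 without glutamine (-0.30, 95% confidence interval -0.94 to 0.34; adjusted p against no change 0.0778 with the block). FGFR1 counted 3281, 2202 and 2252 in CTRL medium and 2995, 1991 and 1860 without glutamine (-0.18, interval -0.78 to 0.42; 0.228 with the block). Replicate 1 was again the highest in these groups, and both receptors were lower without glutamine in each of the 3 same-numbered pairs. KIT had 1 read in each glutamine group, and no fold is given.

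**Figure D5:**
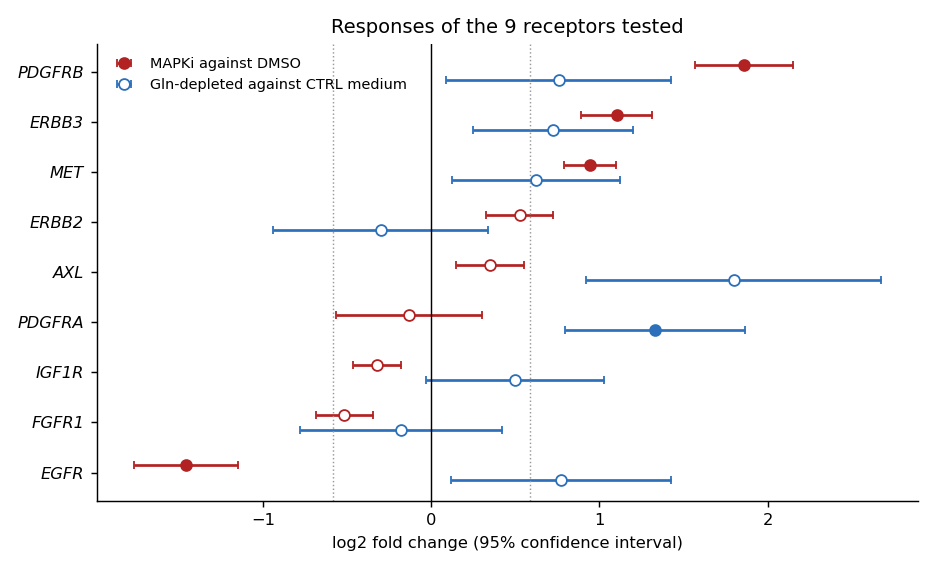
Log2 fold change with its 95% confidence interval for the 9 receptors tested, with MAPKi (red) and without glutamine (blue); filled points passed the 1.5-fold limit drawn as dotted lines. The intervals of EGFR lie on opposite sides of 0. Those for glutamine withdrawal, where the replicate pairing was left out of the fit, are wider.

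Of the other receptor tyrosine kinases, 28 were tested without glutamine, and 2 were upregulated and 1 downregulated (4 and 4 with the block), with a median log2 fold change of -0.03. Past the limit were 10.7% of them, against 4.86% of all genes (28.6% and 14.7% with the block). DDR2, a collagen receptor, rose from 4736 ± 1284 to 17690 ± 3655 normalised counts (log2 fold change 1.90) and EPHB1 from a mean of 141 to one of 399 (adjusted p against the limit 0.0279), whereas EPHA5 fell from 82.1 ± 32.7 to 11.3 ± 5.56 (-2.86). Both EPHB1 and EPHA5 are ephrin receptors.

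Ligands gave 5 upregulated and none downregulated genes of 20 tested without glutamine (6 and 2 with the block), with a median log2 fold change of 0.36. Past the limit were 25% of them, against 4.86% of all genes (40% and 14.7% with the block). PDGFB, a ligand of both platelet-derived growth factor receptors, counted 4.90, 10.5 and 6.25 in CTRL medium and 133, 102 and 84.7 without glutamine (3.86). AREG, a ligand of EGFR, counted 10.8, 8.60 and 6.25 in CTRL medium and 78.8, 124 and 66.8 without glutamine (3.38). For both ligands all libraries without glutamine lay far above the CTRL libraries. BTC rose from 12.5 ± 1.77 to 77.3 ± 4.39 (2.61). PDGFA, the principal ligand of PDGFRA, went from 468 ± 63.3 to 2379 ± 423 (2.35), and NRG1 from 48.8 ± 19.0 to 173 ± 25.3 (1.83), both picked for naming from their values. PDGFA and its receptor PDGFRA were thus both upregulated without glutamine, though the call for PDGFRA was lost on leaving out any of the 6 libraries.

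Attenuators gave 2 upregulated genes and 1 downregulated gene of 15 tested without glutamine (median 0.41). ERRFI1, which binds and inhibits EGFR, rose from 3631 ± 287 to 27411 ± 12789 (log2 fold change 2.92), RNF41, a ligase that acts on ERBB3, from 1920 ± 155 to 6302 ± 473 (1.71), and SPRY1 fell from 1457 ± 381 to 251 ± 104 (-2.54). Of 19 adaptors tested, GRB10 was upregulated (1.11) and GAB2 downregulated (-1.44), with a median of 0.18, and the block gave 4 and 3. Of the 8 shedding proteins, TIMP1, a metalloprotease inhibitor, was upregulated (1.35; median 0.06). Of the 12 transcription factors, JUN was upregulated (1.63) and MITF downregulated (-2.33), with a median of 0.29. ERK pathway targets gave 2 upregulated genes of 12 (FOSL1 with 2.24 and CCND1 with 1.95, and 4 with the block) and a median of 0.78. Past the limit were 20% of the attenuators, 10.5% of the adaptors and 12.5% of the shedding proteins, against 4.86% of all genes. The transcription factors and the ERK pathway targets each gave 16.7%. With the block the shares were 26.7% of the attenuators (2 upregulated and 2 downregulated), 36.8% of the adaptors and 12.5% of the shedding proteins. They were 16.7% of the transcription factors and 33.3% of the ERK pathway targets, against 14.7% of all genes under the block.

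Whether a receptor responded differently to the treatments was tested as the difference of the 2 responses over all 12 libraries. The experiment and its sequencing batch cannot be told apart, but each response was taken against controls of its own batch. A batch effect cancels in this difference only if it acted alike on both groups of an experiment, which was not tested. The fit also takes its spread from both experiments, and replicates differed more in the glutamine experiment. The response differed for 6 of the 9 receptors, against 36.1% of 16072 genes tested. EGFR had the largest difference (MAPKi minus glutamine withdrawal -2.18 on the log2 scale, SE 0.32, adjusted p = 0.000291), with a fall under MAPKi and higher values without glutamine.

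The responses of PDGFRA and PDGFRB differed in opposite directions. For PDGFRA the difference was -1.42 (SE 0.29, adjusted p = 0.00254) and for PDGFRB it was 1.15 (SE 0.31, adjusted p = 0.0118). These 2 and EGFR passed on leaving out any 1 of the 12 libraries. The difference for AXL was -1.40 (SE 0.42, adjusted p = 0.0221), which was lost without MAPKi replicate 1.

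Differences for ERBB2 (0.88, SE 0.32, adjusted p = 0.0485) and IGF1R (-0.77, SE 0.25, adjusted p = 0.0303) rested on more libraries. ERBB2 passed on leaving out CTRL medium replicate 2 or 3 or Gln-depleted replicate 1, and was lost on leaving out any of the other 9. IGF1R was lost without MAPKi replicate 2 or 3, DMSO replicate 1 or 3, CTRL medium replicate 2 or 3, or Gln-depleted replicate 2. Without a filter on low counts neither passed (adjusted p = 0.0669 and 0.0708), and with the replicate block both did (0.000337 and 0.000868). No difference passed for ERBB3 (0.43, 95% confidence interval -0.08 to 0.94), MET (0.37, -0.11 to 0.85) or FGFR1 (-0.29, -0.91 to 0.34, and with the block adjusted p = 0.0478), and these intervals do not show equal responses.

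The genes whose levels followed those of PDGFRB and EGFR most closely were taken by Pearson correlation of log2 CPM over the 12 libraries, among 11716 genes. For PDGFRB these were MFSD12 (r = 0.976), a transporter of pigment organelles, SEC14L1 (0.973) and SNX19 (0.970). For EGFR they were ECE1 (0.977), which processes endothelin, ARMCX5 (0.976) and GATA6 (0.975), a transcription factor. These 12 libraries share 4 groups, so that the correlations describe the group differences.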

How the data were processed

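RNA was sequenced from 4 groups of 3 A375 libraries each, prepared with rRNA depletion. The labels name cytoplasmic RNA whereas the methods on sequencing name total RNA, so the fraction is uncertain. The authors trimmed reads with fastp (0.20.1), aligned them to GRCh38.p13 with HISAT2 (2.2.1) and deposited raw exon counts per gene made with htseq-count (0.13.5). Strand use in counting is not given in the sources used here. All 12 columns of values were used.

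The counts were fitted per experiment with edgeR (4.0.16, R 4.3.3), the quasi-likelihood test and TMM factors (0.926 to 1.08 over both experiments), over every gene with a mean normalised count of at least 10 in its 6 libraries. A gene was called when its p against a 1.5-fold change was at most 0.05 after Benjamini-Hochberg adjustment. A test against no change and a test of the difference between responses over all 12 libraries were also made. Standard errors come from the F statistic. Intervals for reads cover counting error only, and PCR copies were not removed. FPKM used main transcript lengths and positions from GENCODE release 44. The scripts were tested on simulated data.

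The members and lists were chosen with earlier results of these data known. All 10 receptors were named. Of each other list, the 3 highest and 3 lowest log2 fold changes among genes past the limit were named, with the exceptions stated. Replicate numbers were taken to pair the glutamine libraries only, since there every same-number correlation across genes exceeded 0.1 and replicate 1 is a labelled batch. The main fits left this pairing out, and it entered only in the alternative with the replicate block. Alternatives were DESeq2 (1.42.0), other scalings, filters and thresholds, the replicate block, batch, and leaving out each library.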

Additional observations from a re-analysis of the deposited data

How the results depend on the processing

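The number of receptors past the limit with MAPKi was 4, and it was 8 with no fold threshold and 2 with a fold threshold of 2 (PDGFRB and EGFR), with 4 to 4 on leaving out 1 library. With a minimum of 2 reads it was 5, since KIT passed. Without glutamine it was 1, and it was 0 with library totals, a fold threshold of 2, an adjusted p of 0.01 or a mean count of at least 100. It was 2 with no fold threshold, all 12 libraries in the fit, the experimental batch as a term or the replicate block, and 0 to 1 on leaving out 1 library. With the DESeq2 test, a minimum of 2 reads, no count filter, or batch 2 alone, it was 1 again, but that receptor was AXL and not PDGFRA. The number of receptors with different responses was 6, and it was 2 at an adjusted p of 0.01, 4 without a count filter, 7 with the replicate block and 4 to 6 on leaving out 1 library. The cause was not tested. No value changed direction past the threshold under any alternative run.

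Over all genes, calls with MAPKi numbered 5382, against 11465 with no fold threshold and 2731 with a fold threshold of 2. Without glutamine they numbered 772, against 2512, 298, 227 at an adjusted p of 0.01, 2092 with all 12 libraries, 2131 with the batch term, 1420 in batch 2 alone and 2343 with the replicate block (1337 upward and 1006 downward). On leaving out 1 library they numbered 269 (without CTRL medium replicate 2) to 987 (without Gln-depleted replicate 1), with 302 without CTRL medium replicate 3, 290 without Gln-depleted replicate 2 and 481 without Gln-depleted replicate 3. Library totals gave 398 upward and 459 downward in place of 510 and 262. Genes with different responses numbered 5810, against 3654 at an adjusted p of 0.01. In the MAPKi experiment same-numbered libraries did not deviate together across genes (r = 0.02, 0.05 and 0.01), and the replicate block gave the same 4 receptors. For the receptors themselves the block lowered the standard errors, as for ERBB2 (0.086 to 0.047) and MET (0.067 to 0.041). The exceptions were EGFR (0.134 to 0.140) and AXL (0.0876 to 0.0894).

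The low reads of KIT, and the 3 libraries per group, limit what can be seen.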
